A study of Homo sapiens with 6 samples.

Results

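The genes described here are the kinesin motors and the centromere, kinetochore and spindle checkpoint genes of IGR37, a human melanoma cell line. They were taken by symbol from the authors' deposited edgeR table. The rule took KIF followed by a number with or without a letter A to C, KIFC1 to KIFC3, and CENPA to CENPX. Added to these were AURKA, AURKB, BUB1, BUB1B, BUB3, PLK1, TTK, MAD2L1, NDC80, NUF2, SPC24, SPC25, TPX2, NUSAP1, CDC20, UBE2C, TOP2A, MKI67, BIRC5 and INCENP. The kinesin partner KIFAP3 is not a member. This gave 75 of the 12558 genes in the table, all matched to a gene of GENCODE 44 on hg38. A further 8 protein-coding symbols that meet the rule (KIF2B, KIF4B, KIF5A, KIF12, KIF19, KIF27, CENPS and CENPX) had no row and were not analysed here. The cells of both groups carry CTNNB1, the beta-catenin gene, joined at its N-terminus to the SV40 large T-antigen nuclear localisation signal and switched by doxycycline. The construct was placed with a piggyBac transposon, and cells were selected with 1 mg/ml G418. Of 6 libraries, 3 are of uninduced cells and 3 of cells harvested after 24 h in 20 ng/ml doxycycline. The labels give no group of parental cells with doxycycline. They do not say whether replicates were grown separately, and the spread behind the p-values may thus be technical.

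Kinesins are motors that walk along microtubules or take them apart at their ends. One set builds the spindle, moves chromosomes and helps split the cell, and is made mainly in the G2 and M phases of the cell cycle, while another carries vesicles, organelles and ciliary cargo at all times. CENP proteins mark the centromere and build the kinetochore, to which spindle microtubules attach; the checkpoint proteins hold the anaphase-promoting complex back until every kinetochore is attached. In pigment cells, transport kinesins move melanosomes and melanosomal cargo outward along microtubules.

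The authors' deposited table has 1 row per gene and no value per library, so neither replicate values with an SD nor library depths are given. Its header does not name the groups or their order. Higher and lower below are the positive and negative sides of that table. In the authors' deposited table CTNNB1 itself was 3.89-fold higher (edgeR FDR 1.24e-08, log2 1.96), the side expected for doxycycline over no doxycycline. Neither the order nor that the comparison is of these groups is stated, and both remain assumptions. A gene counted as changed when the authors' edgeR FDR, adjusted over the whole table, was under 0.05. Standard errors are approximate, taken as the size of the log2 fold change divided by the square root of the F score. All 6 melanocytic markers examined (MITF, PMEL, MLANA, TYR, DCT and SOX10) were in the authors' deposited table and on the higher side, with a median log2 fold change of 6.30. Of 5 measured fibroblast markers 3 (COL1A1, COL1A2 and COL3A1) were lower, LUM was 8.59-fold higher (edgeR FDR 7.07e-05) and PDGFRA did not pass, in the authors' deposited table. The median log2 fold change of these 5 was -5.91 and the lowest -6.74. Both measured endothelial markers were lower, CDH5 11.7-fold and PECAM1 5.86-fold, at averages of 1.48 and 4.30 CPM, as was the 1 measured keratinocyte marker. None of the blood markers PTPRC, CD3E and CD14 had a row. These marker shifts run alongside every result below, and their part in it was not tested.

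Of the 75 genes, 37 were lower and 9 higher in the authors' deposited table, and 29 did not pass the test. Over all genes, 26.4% were lower and 24.5% higher, 50.9% in all. In bulk RNA, fewer dividing cells and less of each transcript per dividing cell cannot be told apart. The median log2 fold change of the 75 genes was -0.47, against -0.01 for all genes. At least a 2-fold difference was reached by 15 lower and 5 higher members, on a table in which 15.6% of genes were lower and 13.3% higher by that rule. The 59 ERCC spike-in RNAs in the table had a median log2 fold change of 0.57. Centred on that value 55 members were lower and 5 higher, with 52.3% of all genes lower and 11.3% higher. The side a gene falls on below is relative to the authors' own scaling.

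In the authors' deposited table all 12 mitotic kinesins had a negative log2 fold change; 8 passed the test (66.7%, against 26.4% of all genes lower), 0 were higher and the median was -0.61. With 4 denominator degrees of freedom 5 of the 12 were called, and 17.3% of all genes were lower. KIF20A, which brings the chromosomal passenger complex to the central spindle, was 3.03-fold lower (log2 -1.60, approximate SE 0.18, edgeR FDR 4.23e-06, average 127 CPM in the authors' deposited table). KIF11, the motor that pushes the spindle poles apart, was 3.00-fold lower (log2 -1.58, approximate SE 0.22, edgeR FDR 2.76e-05, average 36.0 CPM in the authors' deposited table). KIF20B, a cytokinesis motor, was 2.00-fold lower (edgeR FDR 0.000219) and the chromokinesin KIF22, which pushes chromosome arms away from the poles, 1.70-fold lower (edgeR FDR 0.000179) in the authors' deposited table. KIF18A, which damps chromosome movements at the metaphase plate, was 2.28-fold lower at an average of only 9.64 CPM in the authors' deposited table, and its relative KIF18B 1.87-fold lower. KIFC1, a minus-end motor that focuses spindle poles, and KIF2C, a microtubule depolymerase of the centromere, were lower by 1.33-fold and 1.31-fold.

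The 4 mitotic kinesins that did not pass under the authors' scaling were KIF23, KIF4A, KIF15 and KIF14. Centred on the spike-ins, all 12 mitotic kinesins were called lower, with 52.3% of all genes lower. KIF23, the motor of centralspindlin, was at a log2 of -0.45 in the authors' deposited table (edgeR FDR 0.0713), with an approximate 95% interval of -0.88 to -0.03. For KIF15, which can stand in for KIF11 at the spindle, the value was -0.36 (edgeR FDR 0.122). KIF4A, a chromokinesin of the central spindle, was at -0.26, and KIF14, a cytokinesis motor, at -0.02 with an interval of -0.50 to 0.46, in the authors' deposited table. That interval leaves out a loss as large as that of KIF11 or KIF20A. KIF4A has a near-identical intronless copy, KIF4B, so reads may be shared.

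Transport kinesins spread in both directions. Of 14 in the authors' deposited table, 5 were higher, 6 lower and 3 did not pass, and the median was -0.11. Their log2 fold changes ran from -2.24 to 6.99 with an SD of 2.57, while those of the mitotic kinesins ran from -1.60 to -0.02 with an SD of 0.52. Over all genes the SD was 1.82. The upper end of the transport kinesins is KIF1A at 6.99 and KIF17 at 5.39, whose implied levels on one side were only 0.078 and 0.239 CPM. The next highest was KIF13B at 1.69. The quartiles, which depend less on such values, were -0.86 and 0.72 for transport kinesins and -1.05 and -0.38 for mitotic kinesins. Those of all genes were -0.61 and 0.55. The share called in either direction was 78.6% of transport kinesins and 66.7% of mitotic kinesins, against 50.9% of all genes. The classes hold few genes and were compared as a description, without a test.

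KIF1A and KIF17, motors best known from neurons, were the most strongly higher members. KIF1A, which carries synaptic vesicle precursors along axons, was 127-fold higher (log2 6.99, approximate SE 0.63, edgeR FDR 4.24e-07) at an average of 5.01 CPM in the authors' deposited table. With equal groups, that average and fold imply about 9.94 CPM on one side and 0.078 CPM on the other, so the size of the fold rests on a level close to 0. KIF17, a homodimeric kinesin-2 of dendrites and cilia, was 41.9-fold higher (log2 5.39, approximate SE 0.49, edgeR FDR 5.04e-07), at an average of 5.13 CPM in the authors' deposited table, implying about 10.0 CPM against 0.239 CPM. The gene of KIF1A lies on the minus strand of chromosome 2 at 240713761 to 240824293, and that of KIF17 on the minus strand of chromosome 1 at 20664014 to 20718017 (hg38). KIF13B, a vesicle motor, was 3.23-fold higher (edgeR FDR 0.000167, average 9.22 CPM) in the authors' deposited table.

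Conventional kinesin and several vesicle motors were lower. KIF5B, the widely expressed heavy chain of conventional kinesin, was 1.88-fold lower (log2 -0.91, approximate SE 0.12, edgeR FDR 2.41e-05, average 175 CPM), and its neuronal relative KIF5C 4.71-fold lower (log2 -2.24, approximate SE 0.31, edgeR FDR 3.83e-05, average 11.1 CPM) in the authors' deposited table. KIF1C, a vesicle motor, was 2.17-fold lower (log2 -1.12, approximate SE 0.14, edgeR FDR 1.17e-05, average 297 CPM) in the authors' deposited table. KIF13A, which brings recycling endosome cargo toward melanosomes, was 1.65-fold lower, and KIFC3, a minus-end motor of epithelial cells, 1.48-fold lower in the authors' deposited table. Values that did not pass were -0.42 for KIFC2, 0.31 for the endosome motor KIF16B and 0.19 for KIF3C, on the log2 scale of the authors' deposited table.

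Some close relatives within a kinesin family differed in sign, and others did not. KIF5B and KIF5C, KIF18A and KIF18B, and KIF20A and KIF20B were lower together, and KIF1A and KIF1B higher together. The pairs that follow were chosen after their values were seen. KIF3A and KIF3B form 1 heterotrimeric motor of intraflagellar and vesicle transport together with KIFAP3. In the authors' deposited table KIF3A was 1.72-fold higher (log2 0.79, edgeR FDR 0.00171), KIF3B 2.26-fold lower (log2 -1.18, edgeR FDR 1.36e-05) and KIFAP3 at a log2 fold change of -0.003 (edgeR FDR 0.994). The log2 fold changes of KIF3A and KIF3B differed by 1.96, with an approximate SE of 0.23 if the estimates are independent. KIF13B and KIF13A differed by 2.42 in the same way (approximate SE 0.34). KIF1B, which carries mitochondria and synaptic vesicle precursors, was 1.45-fold higher (edgeR FDR 0.0119, from the authors' deposited table) and differed from KIF1C by 1.65 (approximate SE 0.21). These differences within a pair do not depend on the scaling. The calls of KIF3A and KIF1B do, as both were lost when the table was centred on the spike-ins, where their log2 values were 0.22 and -0.03.

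**Figure D1:**
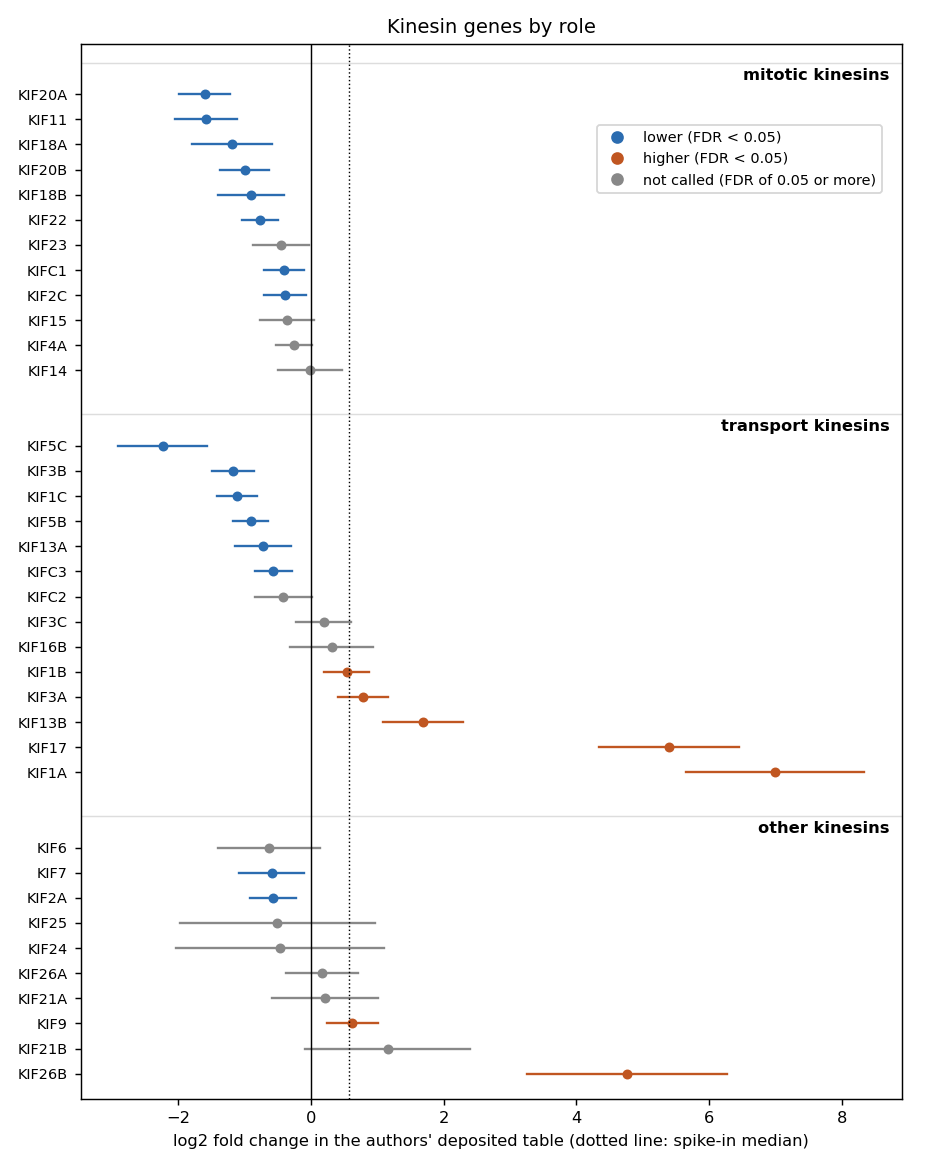
Log2 fold change of each of the 36 kinesin genes in the authors' deposited table (horizontal axis), by role, with approximate 95% intervals; colour gives the call at an edgeR FDR under 0.05 and the dotted line the spike-in median of 0.57. All 12 mitotic kinesins lie at or below 0, and the 14 transport kinesins run from -2.24 to 6.99.

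The 10 kinesins of other roles held 2 lower and 2 higher genes. Each is 20%, which did not exceed the 26.4% of all genes that were lower or the 24.5% that were higher. In the authors' deposited table KIF26B, an atypical kinesin, was 27.1-fold higher (edgeR FDR 5.85e-05) at an average of only 2.76 CPM, and KIF9, a ciliary kinesin, 1.54-fold higher (edgeR FDR 0.0104). KIF2A, a microtubule depolymerase, was 1.49-fold lower (edgeR FDR 0.00852) and KIF7, a ciliary regulator of Hedgehog signalling, 1.51-fold lower (edgeR FDR 0.0419) in the authors' deposited table. KIF6, KIF21A, KIF21B, KIF24, KIF25 and KIF26A did not pass, with log2 fold changes from -0.63 for KIF6 to 1.15 for KIF21B. Among these 6 genes KIF21B, KIF24 and KIF25 averaged under 2 CPM in the authors' deposited table, where the approximate SEs were 0.58 to 0.73.

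Start regions of mitotic and transport kinesins differed in letters known from cell cycle promoters, which the choice of genes did not use. Promoters of G2 and M phase genes often carry a CHR element, TTTGAA or TTCGAA, bound by the DREAM and MuvB complexes, and CCAAT boxes bound by NF-Y. Both were searched on both strands in RefSeq windows from 250 bases before to 50 bases after each start (GRCh38.p14). Among mitotic kinesins, 10 of 12 held CHR letters and 10 held CCAAT letters, and 9 held both in 1 window. Of 11 transport kinesins with a window, 1 (KIF5B) held CHR letters and 4 held CCAAT letters. Over the 9443 genes of the table with a window, 15.5% held CHR letters, 43.4% CCAAT letters and 6.49% both. The 11 distinct CHR sites of the mitotic kinesins all began within 60 bases of an annotated start, between 55 bases before and 30 bases after it. KIF2C held neither set of letters, KIF20A held CCAAT letters only and KIF15 CHR letters only.

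The 100 bases before the RefSeq start are printed for selected members, none of them a kinesin of other roles, to show the letters in place. Stretches of KIF23, KIF15, PLK1 and BUB1B were also picked but left out, as a larger part of each overlapped annotated exons. Printed stretches may still overlap exons in part. That of KIF22 runs past its GENCODE start at 29790727. Capitals mark CHR letters and CCAAT letters on either strand, so that TTTGAA can appear as its complement TTCAAA and CCAAT as ATTGG. All stretches are written in the direction of the gene. For KIF11 the stretch is chr10:92593030-92593129 on the plus strand. Those of KIF18A (chr11:28108157-28108256 on the minus strand), KIF22 (chr16:29790651-29790750 on the plus strand) and KIF4A (chrX:70290004-70290103 on the plus strand) also hold a CCAAT box ahead of CHR letters. The KIF20A stretch (chr5:138179012-138179111 on the plus strand) holds CCAAT letters at 2 places and no CHR letters. KIF5B (chr10:32056426-32056525 on the minus strand), KIF3B (chr20:32277551-32277650 on the plus strand) and KIF1C (chr17:4997850-4997949 on the plus strand) stand for the transport kinesins; the CHR letters of KIF5B lie further upstream.
KIF11: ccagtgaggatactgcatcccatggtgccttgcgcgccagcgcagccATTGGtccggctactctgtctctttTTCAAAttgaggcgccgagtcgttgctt
KIF18A: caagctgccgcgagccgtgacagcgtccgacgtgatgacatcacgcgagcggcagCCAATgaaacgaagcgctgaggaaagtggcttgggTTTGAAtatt
KIF22: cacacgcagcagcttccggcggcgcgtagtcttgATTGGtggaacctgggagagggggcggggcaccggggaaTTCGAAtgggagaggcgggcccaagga
KIF4A: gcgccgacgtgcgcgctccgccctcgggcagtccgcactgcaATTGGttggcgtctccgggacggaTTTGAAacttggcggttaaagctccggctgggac
KIF20A: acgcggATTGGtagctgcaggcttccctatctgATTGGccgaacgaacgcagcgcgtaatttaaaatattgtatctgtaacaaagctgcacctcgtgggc
KIF5B: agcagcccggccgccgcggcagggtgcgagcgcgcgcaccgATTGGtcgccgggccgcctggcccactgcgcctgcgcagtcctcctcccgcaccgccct
KIF3B: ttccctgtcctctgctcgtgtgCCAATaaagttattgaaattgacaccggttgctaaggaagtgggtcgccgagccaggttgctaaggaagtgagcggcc
KIF1C: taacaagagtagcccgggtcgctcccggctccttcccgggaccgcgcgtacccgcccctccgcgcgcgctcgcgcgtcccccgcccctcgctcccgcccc

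CHR letters were also frequent in the other mitotic classes. They were in 5 of 6 checkpoint and mitotic kinase genes with a window, in 4 of 4 exit, spindle and chromosome genes and in 9 of 19 centromere and kinetochore genes. Those before CDC20 (chr1:43358881-43358980 on the plus strand), MKI67 (chr10:128126424-128126523 on the minus strand), INCENP (chr11:62123911-62124010 on the plus strand) and CENPA (chr2:26785956-26786055 on the plus strand) are shown in the same way; in MKI67 the second CHR run and a CCAAT box share bases.
CDC20: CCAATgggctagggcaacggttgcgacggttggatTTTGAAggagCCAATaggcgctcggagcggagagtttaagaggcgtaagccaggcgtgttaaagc
MKI67: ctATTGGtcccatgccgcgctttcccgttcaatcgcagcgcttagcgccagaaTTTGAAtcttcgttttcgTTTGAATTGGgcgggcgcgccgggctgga
INCENP: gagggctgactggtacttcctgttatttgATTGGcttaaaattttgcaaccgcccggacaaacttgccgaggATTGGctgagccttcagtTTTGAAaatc
CENPA: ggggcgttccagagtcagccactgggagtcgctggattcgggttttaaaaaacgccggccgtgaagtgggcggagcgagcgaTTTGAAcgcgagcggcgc

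Within the 60 members with a window, genes with and without CHR letters had similar medians. The 30 with CHR letters had 17 lower and 1 higher gene in the authors' deposited table and a median log2 fold change of -0.46. The 30 without had 13 lower and 5 higher genes and a median of -0.49. Over all genes 26.4% were lower and 24.5% higher. The groups also differed in class, as 10 of 12 mitotic kinesins but 1 of 11 transport kinesins with a window held CHR letters. KIF20A, the most strongly lower mitotic kinesin, holds no CHR letters, and KIF14, at -0.02, holds them. The members without a window were AURKA, BIRC5, BUB3, CENPH, CENPJ, CENPL, CENPM, KIF13B, KIF21B, KIF26B, KIFC2, KIFC3, TPX2, TTK and UBE2C.

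**Figure D2:**
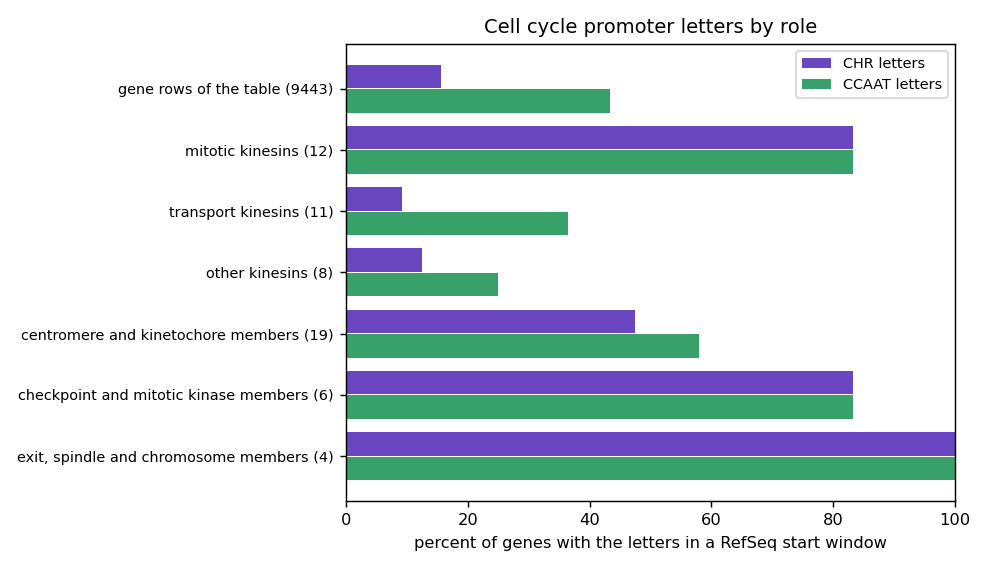
Percent of genes (horizontal axis) whose RefSeq start window holds CHR letters or CCAAT letters, by class, with the number of genes with a window in brackets. CHR letters were found in 83.3% of mitotic kinesins and 9.09% of transport kinesins, against 15.5% of the genes of the table.

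Of the centromere and kinetochore genes, 12 of 23 (52.2%, against 26.4% of all genes) were lower in the authors' deposited table, 2 were higher and 9 did not pass, with a median log2 fold change of -0.58. With 4 denominator degrees of freedom 6 of 23 were lower, and 17.3% of all genes. An FDR under 0.01 also left 6 lower, with 20.0% of all genes. CENPV, a protein linked to centromere organisation and cytokinesis, stood far from the rest at 45.0-fold lower (log2 -5.49, approximate SE 0.20, edgeR FDR 1.09e-10, average 60.7 CPM) in the authors' deposited table. The implied levels are about 2.64 CPM against 119 CPM. The next member, CENPP, was 2.27-fold lower. The CENPV gene is on the minus strand of chromosome 17 at 16342534 to 16353656 (hg38). Without CENPV the remaining centromere and kinetochore genes ran from -1.18 to 1.21 on the log2 scale.

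CENPA, the histone H3 variant that defines the centromere, was 2.03-fold lower (log2 -1.02, approximate SE 0.33, edgeR FDR 0.0184 in the authors' deposited table), and CENPB, which binds alpha-satellite DNA, 1.51-fold lower (edgeR FDR 0.00166). The constitutive centromere network, which sits on CENPA chromatin, was uneven. CENPH was 2.21-fold lower (log2 -1.15, approximate SE 0.17, edgeR FDR 5.43e-05), CENPP 2.27-fold lower (edgeR FDR 0.000123) and CENPO 1.69-fold lower (edgeR FDR 0.00101) in the authors' deposited table. CENPK, CENPN and CENPW were lower by 1.96-fold, 1.50-fold and 1.36-fold. CENPC, the network's link to CENPA, had a log2 fold change of -0.11 (edgeR FDR 0.799) and CENPT, which binds the NDC80 complex, -0.02 (edgeR FDR 0.966) in the authors' deposited table. CENPI, CENPL, CENPM, CENPQ and CENPU did not pass either, and CENPL (edgeR FDR 0.0501) and CENPU (log2 0.42, edgeR FDR 0.0512) were close to the threshold on opposite sides of 0.

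At the outer kinetochore, members of the 4-part NDC80 complex that grips microtubules differed. NDC80 was 1.88-fold lower (log2 -0.91, approximate SE 0.16, edgeR FDR 0.000277) and NUF2 1.47-fold lower (edgeR FDR 0.0169), whereas SPC25 had a log2 fold change of -0.07 (edgeR FDR 0.747) in the authors' deposited table. SPC24 was at -0.80, but at 2.69 CPM with an approximate SE of 0.50 it did not pass. CENPE, the kinesin that carries chromosomes to the metaphase plate, was 1.38-fold lower (log2 -0.47, approximate SE 0.17, edgeR FDR 0.035) in the authors' deposited table. CENPF, a large protein of the kinetochore corona, was on the other side at 1.41-fold higher (log2 0.50, approximate SE 0.15, edgeR FDR 0.0114). CENPJ was 2.32-fold higher (log2 1.21, approximate SE 0.19, edgeR FDR 8.10e-05) in the authors' deposited table; despite its symbol it is a centriole protein that controls centriole length. Centred on the spike-ins, CENPF was no longer called and CENPJ still was.

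Checkpoint and mitotic kinase genes differed among themselves. Of 10 in the authors' deposited table, 4 were lower (40%, against 26.4% of all genes), 0 higher (24.5% of all genes) and 6 did not pass. The median log2 fold change was -0.36. AURKA, the spindle pole kinase, was 2.26-fold lower (log2 -1.17, approximate SE 0.13, edgeR FDR 4.71e-06, average 310 CPM), and PLK1, a kinase of mitotic entry and kinetochores, 2.06-fold lower (log2 -1.04, approximate SE 0.16, edgeR FDR 6.57e-05, average 153 CPM) in the authors' deposited table. AURKB, the kinase of the chromosomal passenger complex, was at -0.29 (edgeR FDR 0.117, average 400 CPM). The log2 values of AURKA and AURKB differed by -0.88 with an approximate SE of 0.20. BIRC5, the survivin subunit of the passenger complex, was 1.75-fold lower (log2 -0.81, edgeR FDR 0.000116), while its scaffold INCENP was at 0.38 (edgeR FDR 0.0558) in the authors' deposited table.

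Of the checkpoint genes BUB3, MAD2L1, BUB1B, BUB1 and TTK, 1 passed, a share below the 26.4% of all genes that were lower. BUB3, whose protein helps to inhibit CDC20, was 1.88-fold lower (log2 -0.91, approximate SE 0.12, edgeR FDR 2.76e-05) in the authors' deposited table. MAD2L1 was at -0.18, BUB1B, which codes for BUBR1, at -0.13 and the kinase BUB1 at 0.06, with edgeR FDRs of 0.463, 0.592 and 0.794. TTK, the kinase that starts the checkpoint, was at -0.43 (edgeR FDR 0.0688). The approximate 95% intervals of MAD2L1, BUB1B and BUB1 reached down to -0.61, -0.52 and -0.31, so under the authors' scaling a 2-fold loss lies outside each of them. This depends on the scaling: centred on the spike-ins, the values of MAD2L1, BUB1B and BUB1 were -0.75, -0.69 and -0.51, and MAD2L1, BUB1B, BUB1, TTK and AURKB were called lower as well.

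Of the 6 genes of mitotic exit, the spindle and chromosomes, 5 were lower (83.3%, against 26.4% of all genes). TPX2, which activates AURKA on the spindle, was 2.30-fold lower (log2 -1.20, approximate SE 0.14, edgeR FDR 4.84e-06, average 530 CPM) in the authors' deposited table. CDC20, the activator of the anaphase-promoting complex that the checkpoint restrains, was 2.09-fold lower (log2 -1.06, approximate SE 0.14, edgeR FDR 1.44e-05), and UBE2C, the ubiquitin carrier that works with that complex, 1.58-fold lower (edgeR FDR 0.00229). The proliferation marker MKI67 was 1.56-fold lower (log2 -0.64, approximate SE 0.16, edgeR FDR 0.00358) and TOP2A, which untangles sister chromatids, 1.37-fold lower (log2 -0.46, approximate SE 0.12, edgeR FDR 0.00701, average 1427 CPM) in the authors' deposited table. NUSAP1, a spindle microtubule binder, was at -0.12 (edgeR FDR 0.481).

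**Figure D3:**
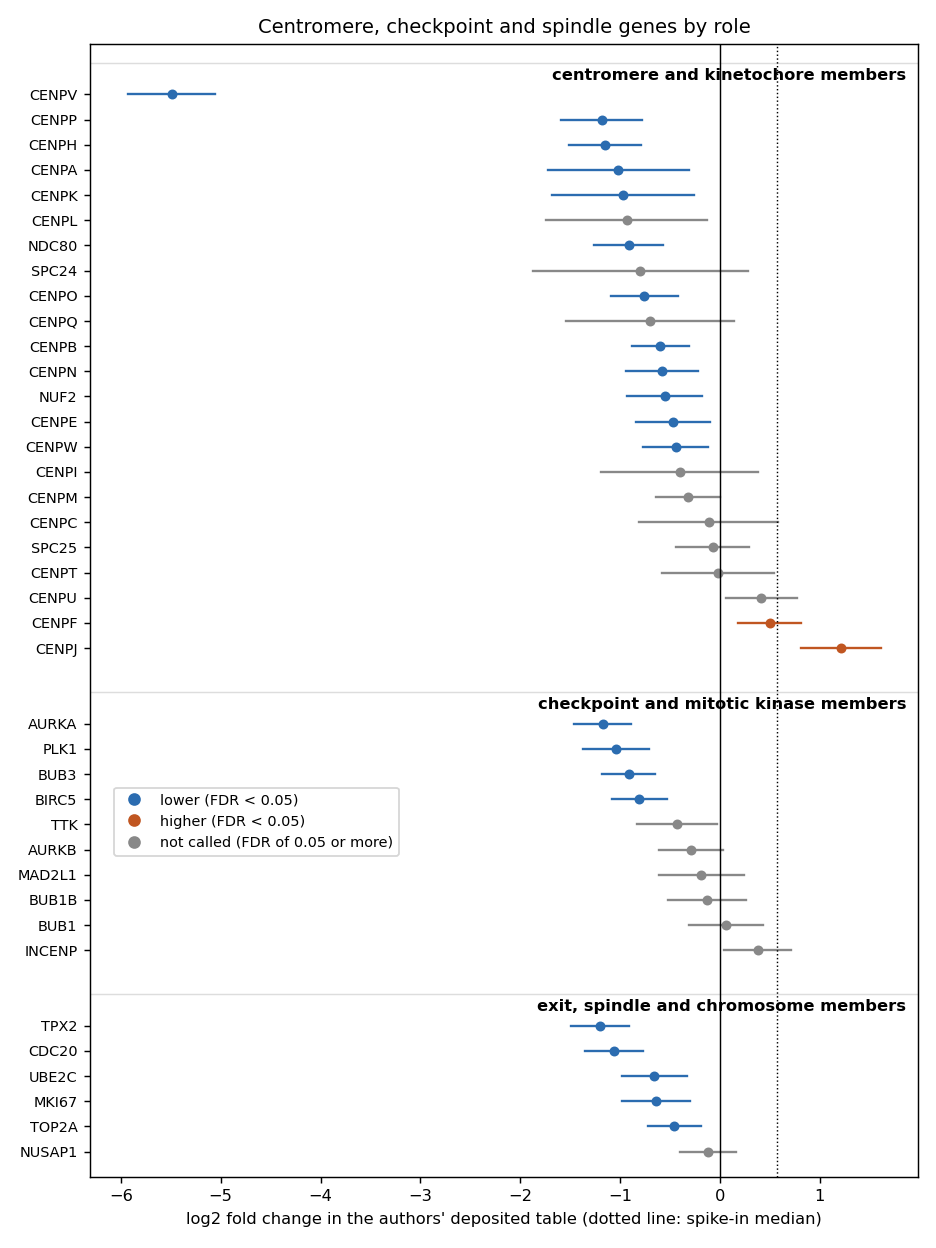
Log2 fold change of the 39 centromere, checkpoint and spindle genes in the authors' deposited table (horizontal axis), by role, with approximate 95% intervals; colour gives the call at an edgeR FDR under 0.05 and the dotted line the spike-in median of 0.57. CENPV lies at -5.49, and CENPF and CENPJ are the only genes called higher.

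**Figure D4:**
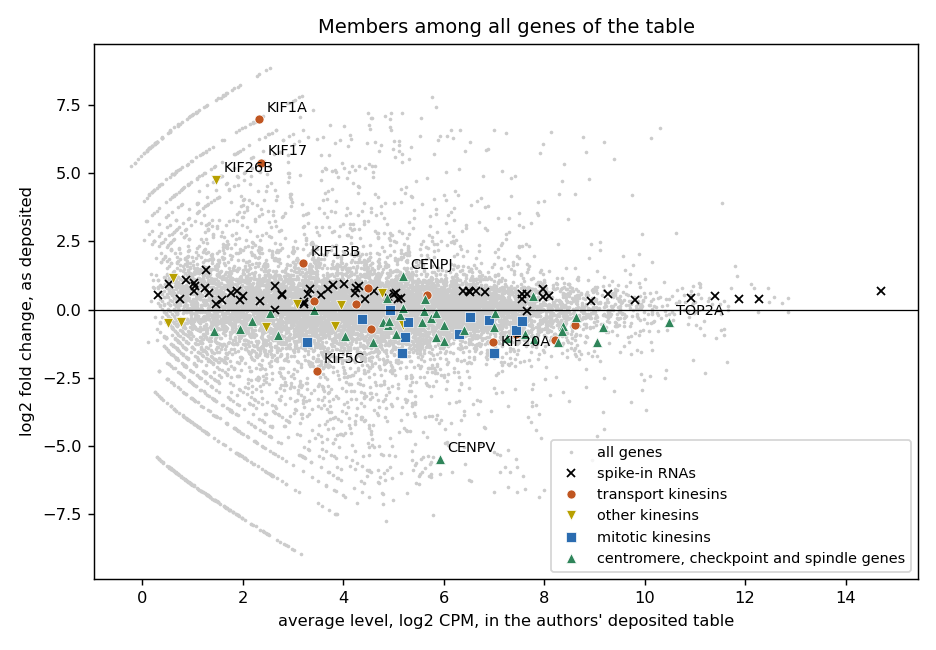
Average level (log2 CPM, horizontal axis) against log2 fold change (vertical axis) for every gene of the authors' deposited table in grey, spike-in RNAs as crosses and the 75 members by role. KIF1A, KIF17 and KIF26B lie at low levels among the curved rows that genes with few reads in 1 group form, while CENPV lies at an average of 60.7 CPM.

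Partners of these genes were taken from lists by role, and their counts are to be read against the 26.4% of all genes that were lower and the 24.5% that were higher. Of 13 mitotic entry genes 10 were lower and 0 higher in the authors' deposited table, with a median log2 fold change of -0.71; CDC25B, the phosphatase that activates CDK1, was 2.37-fold lower (edgeR FDR 1.24e-06) and CCNB1, cyclin B1, 2.41-fold lower (edgeR FDR 6.17e-06). Of 21 outer kinetochore and checkpoint partners 7 were lower and 2 higher (median -0.24), with SPDL1, which recruits dynein to kinetochores, 3.01-fold lower (edgeR FDR 5.21e-07) and MAD1L1, the binding partner of MAD2, 2.81-fold higher (edgeR FDR 8.57e-07) in the authors' deposited table. Of 4 passenger complex and shugoshin genes 1, CDCA8, was lower, at 1.72-fold (edgeR FDR 0.00234). Among 16 subunits and partners of the anaphase-promoting complex 2 were lower and 2 higher (median -0.19), led by CDC16 at 3.58-fold higher (edgeR FDR 1.03e-06) and ANAPC16 at 1.69-fold lower (edgeR FDR 0.00105) in the authors' deposited table.

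The lower shares of the passenger complex list (25%) and of the anaphase-promoting complex list (12.5%) did not exceed that of all genes. Condensin held 1 lower gene of 8 (12.5%), SMC2 at 1.80-fold lower (edgeR FDR 4.93e-05) in the authors' deposited table, with a median of -0.14. Cohesin and separase genes had 4 lower and 2 higher of 13 (median -0.32), with STAG2 1.86-fold higher (edgeR FDR 7.10e-05) and SMC3 1.75-fold lower (edgeR FDR 0.000306). Regulators of the CHR-bearing promoters had 2 lower (14.3%) and 0 higher genes of 14 (median -0.24): the activators FOXM1 and MYBL2 were 1.51-fold and 1.57-fold lower in the authors' deposited table (edgeR FDR 0.00169 and 0.00339). Spindle pole and microtubule proteins had 9 lower and 3 higher genes of 23 (median -0.33), with TACC1 2.71-fold higher (edgeR FDR 2.54e-07) and HMMR 2.16-fold lower (edgeR FDR 3.31e-05) in the authors' deposited table. Augmin and gamma-tubulin genes were at 5 lower and 4 higher of 19 (median 0.02), 26.3% lower and thus at the share of all genes, among them TUBGCP2 at 2.21-fold lower (edgeR FDR 5.76e-05) and TUBGCP4 at 1.70-fold higher (edgeR FDR 0.00209). Of 9 cytokinesis genes 5 were lower and 1 higher (median -0.46); CEP55, an abscission scaffold, was 3.90-fold lower (edgeR FDR 1.11e-06) and CIT, the citron kinase that works with KIF14, 2.88-fold higher (edgeR FDR 1.04e-05) in the authors' deposited table.

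On the transport side, kinesin adaptors and light chains had 6 higher and 3 lower genes of 16, with a median of 0.31, in the authors' deposited table. The mitochondrial adaptors TRAK2 and TRAK1 were 2.30-fold and 2.05-fold higher (edgeR FDR 3.51e-06 and 9.45e-05). Relative to the spike-in median the adaptor median was -0.26. Dynein and dynactin genes had 9 lower and 4 higher of 26 (median -0.23); DYNC1I1, the neuronal dynein intermediate chain, was 15.5-fold higher at an average of 7.94 CPM (edgeR FDR 1.28e-06), and ACTR1A, the dynactin filament subunit, 2.45-fold lower (edgeR FDR 5.09e-06) in the authors' deposited table. DNA replication genes of S phase had 7 lower and 2 higher of 28, or 25% lower, which is close to the share of all genes, and a median of -0.11, led by RRM1 at 1.73-fold lower (edgeR FDR 0.000105) and RFC3 at 1.8-fold higher (edgeR FDR 0.000124) in the authors' deposited table.

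**Figure D5:**
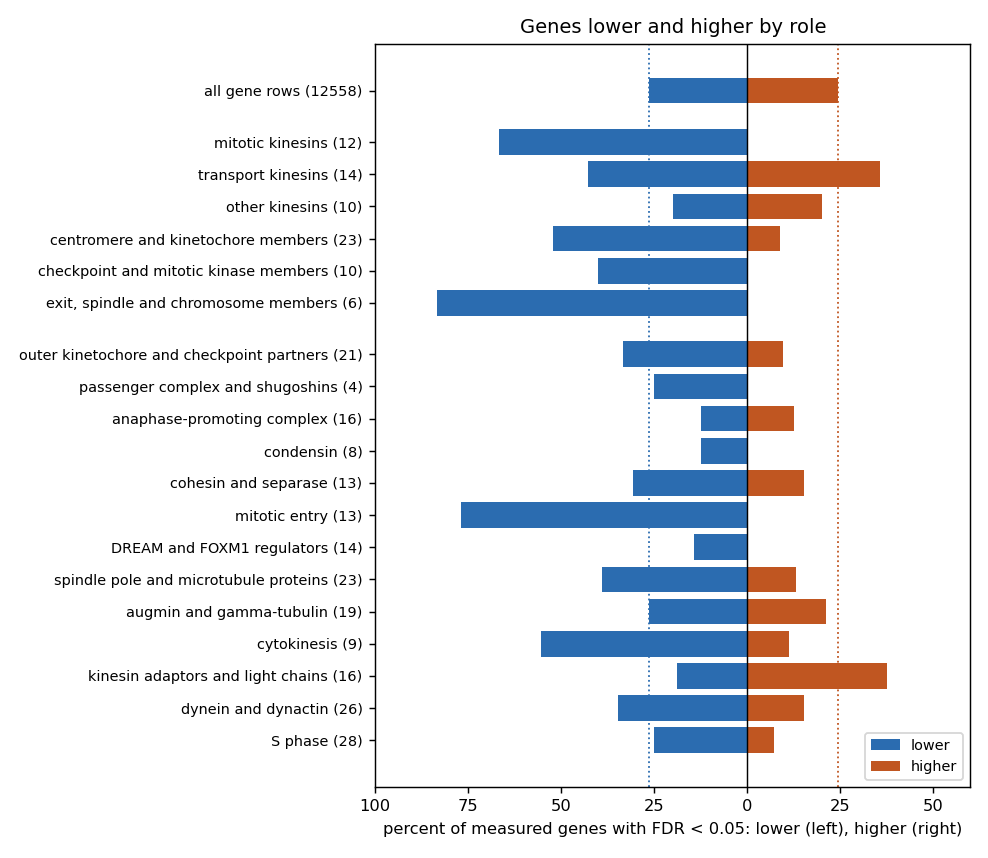
Percent of measured genes called lower (left) and higher (right) at an edgeR FDR under 0.05 in the authors' deposited table, for all genes, the 6 classes of members and 13 lists of partners, with the number measured in brackets; dotted lines mark 26.4% and 24.5%, the shares over all genes. Mitotic kinesins, exit genes and mitotic entry genes have long bars to the left and none to the right.

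Counting limits some of these values. Exons of 16 members overlap an exon of another gene in the table, among them KIF20A with CDC23 and BRD8, CENPV with PIGL, KIF4A with PDZD11, CENPA with SLC35F6 and NUSAP1 with OIP5. How the authors' counting used strand is not given in the sources used here, so such reads could not be told apart. None of the 75 members had the loss of degrees of freedom that marks genes with no reads in 1 group. With the 4 denominator degrees of freedom that 6 libraries in 2 groups leave, KIF18B, KIFC1, KIF2C, KIF13A, KIF1B, KIF2A, KIF7, KIF9, CENPA, CENPE, CENPF, CENPK, CENPN, CENPW, NUF2 and TOP2A were no longer called. That setting kept the authors' F scores and changed only the degrees of freedom. It is not a refit on the spread of the 6 libraries alone. KIF9 also lost its call when centred on the spike-ins.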

How the data were processed

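RNA of IGR37 cells was read from the 3' end with a QuantSeq Forward kit from 500 ng RNA, per the labels' protocols. The authors used STAR and edgeR on hg38, per the submitters' processing notes; their versions, annotation, counting tool and low-count filter were not given in the sources used here. Columns, per the file headers, hold the deposited fold change as log2 and as a ratio, the average log2 CPM, the F score, the p-value and its FDR, which matched a Benjamini-Hochberg adjustment over 12617 rows (largest relative difference 9.01e-13). The table holds 59 spike-in rows, left out of gene counts. No count or level per library was analysed, so depth is unknown and no interval for counting error is given. The test is the authors' own edgeR F test; its denominator degrees of freedom, solved from F and p, are 14.03 in most rows. In 206 genes they are 2 fewer, which marks a group without reads.

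Members and lists were chosen with earlier results of these data known. The rule for names was every member, with full statistics for the 4 of smallest p per class and CENPE, PLK1, AURKA, AURKB, MKI67 and TOP2A, the 2 genes of smallest p per list, and CTNNB1; KIFAP3 and others described at length were chosen after their values were seen. Alternatives were spike-in or median centring (SE from F), 4 degrees of freedom, an FDR of 0.01, a 2-fold minimum, an average log2 CPM of at least 1, leaving out genes with no reads in 1 group, and another classing of kinesins. The 4 degrees of freedom were applied to the deposited F scores without a refit. Solving and centring were tested on simulated data. All 12 printed stretches of RefSeq were found at their coordinates in hg38. Python 3.11.15, numpy 2.4.6, pandas 2.3.3 and scipy 1.17.1 were used.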

Additional observations from a re-analysis of the deposited data

How the results depend on the processing

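No paired analysis was possible because the deposited table holds no values per library, and for the same reason no replicate could be left out in turn. Leaving out genes with no reads in 1 group kept all 37 lower and 9 higher calls of members.

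Centred on the spike-ins, the members had 5 higher genes, transport kinesins 3 higher, centromere and kinetochore genes 1 higher, and checkpoint and mitotic kinase genes 9 lower. All 12 mitotic kinesins were lower. Over all genes 52.3% were lower and 11.3% higher in that setting. The medians moved by the spike-in median itself, to -1.04 for all members, -1.18 for mitotic kinesins, -0.68 for transport kinesins, -1.15 for centromere and kinetochore genes, -0.93 for checkpoint and mitotic kinase genes and -1.22 for exit, spindle and chromosome genes. Centred on the median of all genes, 1 checkpoint and mitotic kinase gene, INCENP, was called higher.

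With 4 denominator degrees of freedom, which 6 libraries in 2 groups leave, 24 members were lower (17.3% of all genes lower), of them 5 mitotic kinesins and 6 centromere and kinetochore genes, and 1 of the latter was higher. An FDR under 0.01 left 6 centromere and kinetochore genes lower and 1 higher (20.0% of all genes lower and 18.1% higher). With a 2-fold minimum, 15 members were lower and 5 higher: 4 mitotic kinesins lower, 3 transport kinesins lower and 3 higher, 4 centromere and kinetochore genes lower and 1 higher, 2 checkpoint and mitotic kinase genes lower and 2 exit, spindle and chromosome genes lower. By the 2-fold rule 15.6% of all genes were lower and 13.3% higher. Each rule in this paragraph is stricter than the main one by construction. The other settings kept every count within 1.5 times the main count. Depth is unknown, and the members at the lowest average CPM have the widest errors.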
